A study of Mus musculus with 12 samples.

Results

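Interferon response genes are the genes that cells switch on when an interferon reaches them. The group described here held 40 genes chosen by name: transcription factors of the response, sensors of foreign nucleic acid, antiviral effectors, guanylate-binding and immunity-related GTPases, and the machinery that prepares peptides for MHC class I. Ifitm genes and MHC class II genes were not included. Of the 40 genes, 34 were measured by a probe set assigned to them alone, among 19938 genes measured in the series. Irf1 had more than 1 such probe set, and the one with the highest mean over the arrays was used for it.

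The samples were epithelium cut with a laser from intestinal tumor sections and from the epithelium beside the tumors. All mice were males on the C57BL6/J background and carried APCmin/+, an inactivated copy of Apc that leads to intestinal adenomas. They were taken at 25 weeks, or sooner if they lost weight. Mice called KO here were FSPCre-PPARB -/-, in which Cre driven by the promoter of fibroblast-specific protein deletes Ppard, which encodes a nuclear receptor for fatty acids. Mice called floxed were their PPARB flox/flox littermates without that Cre in the label. Cre was thus aimed at fibroblasts while the tissue measured was epithelium. Tumor epithelium gave 3 floxed and 3 KO arrays, and adjacent epithelium 2 floxed and 2 KO arrays. Another 2 adjacent arrays, called conflict arrays 1 and 2, carry a title of one genotype and a characteristic of the other, so they were used only where tumor was set against adjacent epithelium over all 12 arrays. The labels do not tie arrays to animals, so p-values measure the spread between arrays, which may be technical, and are too small if arrays share an animal.

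Type I and type III interferons signal through the kinases JAK1 and TYK2 to a complex that holds STAT2 and IRF9 and binds the interferon-stimulated response element (ISRE) in target promoters. Interferon-gamma signals through JAK1 and JAK2 to factors that bind the gamma-activated site (GAS). In intestinal epithelium the response restrains viruses of the gut, and type III interferon is known as its main epithelial inducer. Class I processing genes respond to these signals but are also expressed without them.

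The ISRE and GAS are visible in the sequence before several of these genes, and 6 stretches are shown because the results below turn on their genes. They are the 160 bases before the gene start, read 5′ to 3′ on the gene's strand, from RefSeq on GRCm38.p6. Capitals mark the ISRE core, read on either strand as GAAA, any 2 bases and GAAA again, or the GAS, TTCNNNGAA, which reads the same on both strands. Ifit1 lies at chr19:34640729-34640888 and Ifit3 at chr19:34583369-34583528, both on the plus strand, and Rsad2 at chr12:26456453-26456612 on the minus strand. B2m lies at chr2:122147527-122147686, Irf1 at chr11:53769854-53770013 and Tap1 at chr17:34187396-34187555, all on the plus strand.
Ifit1: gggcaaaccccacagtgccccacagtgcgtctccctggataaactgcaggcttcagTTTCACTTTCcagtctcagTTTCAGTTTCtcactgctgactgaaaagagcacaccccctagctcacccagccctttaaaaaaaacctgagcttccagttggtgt
Ifit3: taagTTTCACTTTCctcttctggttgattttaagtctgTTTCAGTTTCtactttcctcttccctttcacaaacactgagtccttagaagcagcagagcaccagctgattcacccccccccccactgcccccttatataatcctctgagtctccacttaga
Rsad2: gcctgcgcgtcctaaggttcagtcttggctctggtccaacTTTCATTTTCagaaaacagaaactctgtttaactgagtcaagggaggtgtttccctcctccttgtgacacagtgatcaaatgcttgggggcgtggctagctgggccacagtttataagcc
B2m: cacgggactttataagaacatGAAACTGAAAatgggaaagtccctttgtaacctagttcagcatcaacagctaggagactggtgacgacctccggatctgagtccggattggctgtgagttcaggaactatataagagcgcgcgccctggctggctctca
Irf1: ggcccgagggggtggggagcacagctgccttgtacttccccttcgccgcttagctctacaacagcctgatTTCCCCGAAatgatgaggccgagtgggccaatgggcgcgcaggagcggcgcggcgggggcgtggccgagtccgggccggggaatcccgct
Tap1: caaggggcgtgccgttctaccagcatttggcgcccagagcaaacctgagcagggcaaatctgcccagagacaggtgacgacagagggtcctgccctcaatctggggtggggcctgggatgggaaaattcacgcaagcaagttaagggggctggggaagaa

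Ifit1 and Ifit3 each hold 2 ISRE cores, which begin 104 and 85 bases before the start of Ifit1 and 156 and 122 bases before that of Ifit3. The core of Rsad2 begins at 120 bases and that of B2m at 139 bases, and the GAS of Irf1 begins 90 bases before its start. Tap1 holds neither motif in the stretch shown. Tap1 and Psmb9 are transcribed in opposite directions from neighbouring starts, so their windows overlap by 275 bases.

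Promoter windows of 300 bases, from 250 bases before to 50 after the start, were at hand for 25 of the 34 measured genes. The ISRE core occurred in 12 of the 25 (48%), against 3.99% of all 27025 genes with a window. The GAS occurred in 7 of the 25 (28%), against 9.55% of all genes. By role, the ISRE core was found in 6 of 11 antiviral effectors, 2 of 2 sensors, 2 of 2 GTPases, 1 of 5 transcription factors and 1 of 5 class I processing genes.

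All 5 transcription factors, all 4 sensors and all 6 class I processing genes were measured, with 17 of 19 antiviral effectors and 2 of 6 GTPases. Isg15, the ubiquitin-like protein of the response, and the GTPases Gbp2, Gbp6, Igtp and Irgm2 were found only on probe sets assigned to several genes, and Ifi44 on none named here. These 6 genes were not analysed here. Families of near-identical genes, among them Ifit3, Oas1a, Oasl1, Oasl2 and Gbp3, may share probe signal with relatives. Mx1 and Dhx58 lay under the array median in all 12 arrays, Mx2, Oas1a and Irgm1 in all but 1 and Ifit2 in all but 2. Gbp3 lay above it in only 3 arrays and Ifit1 in only 5. The differences of all these genes are thus uncertain in size.

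The arrays were of unequal quality. The first and second floxed arrays of each tissue, called weak-signal arrays, correlated with the other arrays at a median r of 0.51 to 0.61, against 0.82 to 0.85 for the other 8. Their mean log2 level over 14 epithelial markers was 4.97 to 5.78, against 6.07 to 7.40 on the other 8 arrays. Leukocyte signal was low in most arrays: of 6 pan-leukocyte markers, 0 or 1 lay over 1 log2 unit above the array median in 11 arrays, but 5 in conflict array 2. All 4 weak-signal arrays are floxed, so weak signal and genotype cannot be told apart in comparisons that rest on them, and floxed tumor array 3 is the one floxed array without weak signal.

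Among the transcription factors, Stat2, the partner of IRF9, had log2 levels of 4.86, 4.46 and 6.17 in floxed tumor arrays 1 to 3 and 5.63, 5.57 and 6.05 in KO tumor arrays 1 to 3. In adjacent epithelium Stat2 lay at 5.14 and 4.01 in the floxed, 5.55 and 5.60 in the KO and 5.04 and 5.83 in the conflict arrays. Floxed tumor arrays 1 and 2 and floxed adjacent array 2 held the lowest levels, and the floxed tumor arrays spanned those of the KO tumor arrays. Irf9, the DNA-binding partner, lay at 4.74, 4.78 and 6.05 in floxed tumor, 5.53, 5.31 and 5.76 in KO tumor, 4.45 and 4.83 in floxed adjacent, 5.33 and 5.36 in KO adjacent and 5.47 and 5.45 in the conflict arrays (log2 levels). The 4 weak-signal arrays were lowest and floxed tumor array 3 highest.

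Irf7, the factor that amplifies type I interferon production, had log2 levels of 5.02, 4.98 and 7.62 in floxed tumor, 5.62, 5.41 and 5.98 in KO tumor, 4.44 and 4.50 in floxed adjacent, 5.17 and 4.51 in KO adjacent and 4.87 and 5.17 in the conflict arrays. Floxed tumor array 3 exceeded the next array, KO tumor 3, by 1.65 log2 units. Irf8, a factor of myeloid and lymphoid cells that is also induced by interferon-gamma, did not follow this pattern. Its log2 levels were 5.77, 4.70 and 5.49 in floxed tumor and 5.94, 5.89 and 6.03 in KO tumor, and its highest level, 6.21, was in conflict array 2, the array with the leukocyte signal. Irf1, a first-wave factor of interferon-gamma signalling, ranged from 3.77 in floxed adjacent array 2 to 6.55 in KO tumor array 3.

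The sensors recognise viral nucleic acid in the cell. Ifih1, which encodes the RNA sensor MDA5, lay at log2 levels of 5.27, 3.83 and 6.47 in floxed tumor, 5.22, 4.99 and 5.51 in KO tumor, 4.33 and 4.02 in floxed adjacent, 4.74 and 4.76 in KO adjacent and 4.68 and 4.80 in the conflict arrays. Zbp1, a sensor of Z-form nucleic acid that can trigger cell death, lay at 7.70 in floxed tumor array 3 and at 4.17 to 5.73 in the other 11 arrays. Ddx58, the RNA sensor RIG-I, lay at 5.90 there and at 4.11 to 4.97 elsewhere. For all 4 sensors floxed tumor array 3 was the highest array, though by only 0.01 for Dhx58, which encodes LGP2, a regulator of the other RNA sensors.

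**Figure D1:**
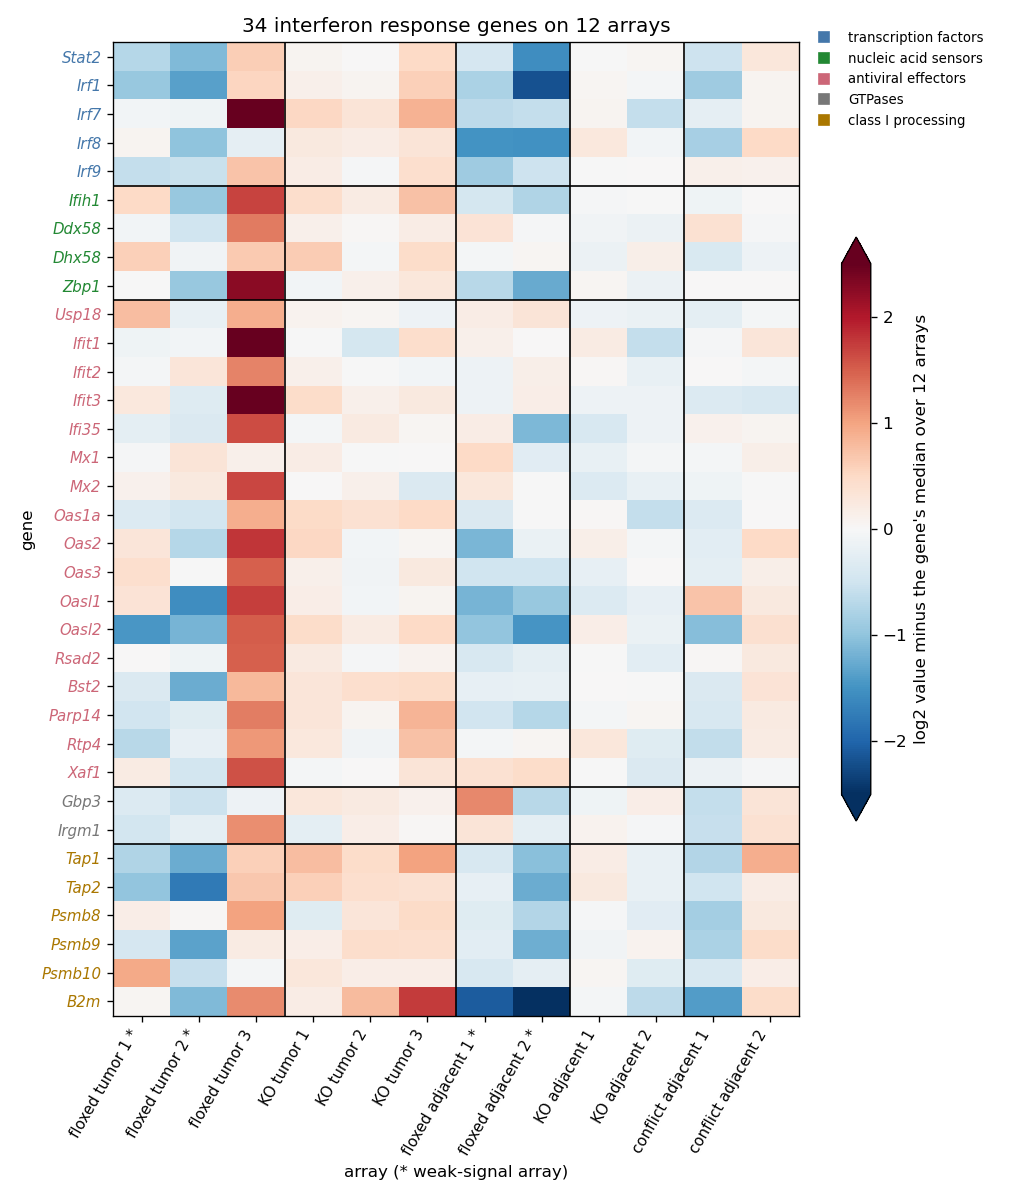
Log2 level of each of the 34 measured genes minus its median over the 12 arrays, with genes in rows coloured by role and arrays in columns; stars mark weak-signal arrays and the colour scale ends at 2.5 log2 units. The column of floxed tumor array 3 is the reddest, with 26 of 34 genes at their highest there, while Irf8, Mx1, Gbp3 and 4 of the 6 class I processing genes, Tap1, Psmb9, Psmb10 and B2m, and Irf1 are highest elsewhere.

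The antiviral effectors showed the widest gap between arrays. Ifit1, which binds viral RNA that lacks the host cap, had log2 levels of 4.19, 4.24 and 6.91 in floxed tumor, 4.30, 3.87 and 4.73 in KO tumor, 4.44 and 4.31 in floxed adjacent, 4.51 and 3.71 in KO adjacent and 4.27 and 4.62 in the conflict arrays. All arrays but floxed tumor array 3 lay within about a log2 unit of each other. Ranked among all probe sets of its own array, which sets aside differences of scale, Ifit1 stood at percentile 94.0 in floxed tumor array 3 and at 33.4 to 61.6 in the other 11. Its relative Ifit3 lay at 8.43 in that array and at 5.36 to 6.21 elsewhere.

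Oas2, an oligoadenylate synthetase that activates the RNA-cutting enzyme RNase L, had log2 levels of 5.27, 4.25 and 6.74 in floxed tumor, 5.48, 4.89 and 5.02 in KO tumor, 3.82 and 4.78 in floxed adjacent, 5.10 and 4.90 in KO adjacent and 4.69 and 5.45 in the conflict arrays. Its relatives behaved alike: Oas3 lay at 5.97 in floxed tumor array 3 and at 3.98 to 4.91 elsewhere, and Oasl1 at 7.65 and at 4.37 to 6.64. Rsad2, viperin, which blocks viral replication, lay at 6.30 there and at 4.39 to 5.04 elsewhere. Mx2, a dynamin-like GTPase against viruses, lay at 5.21 and at 3.18 to 3.81. Usp18, which removes ISG15 from proteins and damps type I signalling, differed in that floxed tumor array 1 (5.46) came within 0.14 of floxed tumor array 3 (5.61). Mx1, whose C57BL/6 copy is known to be defective, stayed between 3.24 and 4.02 in all arrays and was the only measured effector not at its highest in floxed tumor array 3.

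Of the GTPases that attack membranes around intracellular pathogens, Gbp3 was highest in floxed adjacent array 1 (5.30) and lay at 3.40 to 4.43 in the other arrays. Irgm1 lay at 4.90 in floxed tumor array 3 and at 3.15 to 4.11 elsewhere. These 2 genes thus did not share a pattern.

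The class I processing genes had a different order of arrays. Tap1, a subunit of the transporter that moves peptides into the endoplasmic reticulum, had log2 levels of 4.39, 3.91 and 5.74 in floxed tumor, 5.92, 5.61 and 6.15 in KO tumor, 4.76 and 4.10 in floxed adjacent, 5.35 and 4.96 in KO adjacent and 4.42 and 6.06 in the conflict arrays. Floxed tumor array 3 lay within the range of the KO tumor arrays. Psmb8, a catalytic subunit of the immunoproteasome, had levels of 5.96, 5.82 and 6.79 in floxed tumor, 5.48, 6.09 and 6.25 in KO tumor, 5.48 and 5.05 in floxed adjacent, 5.75 and 5.51 in KO adjacent and 4.93 and 6.03 in the conflict arrays. It was highest in floxed tumor array 3, by 0.54.

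B2m, the invariant chain of class I molecules, had log2 levels of 8.72, 7.58 and 9.85 in floxed tumor and 8.85, 9.46 and 10.41 in KO tumor. In adjacent epithelium B2m lay at 6.59 and 4.80 in the floxed, 8.62 and 8.02 in the KO and 7.27 and 9.13 in the conflict arrays. Among arrays of undisputed genotype, tumor lay above adjacent epithelium with no overlap in either genotype, though both floxed adjacent arrays were of weak signal. Conflict array 2 lay above floxed tumor arrays 1 and 2 and above KO tumor array 1. Read by title or by characteristic, it would thus overlap the tumor arrays of its genotype.

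**Figure D2:**
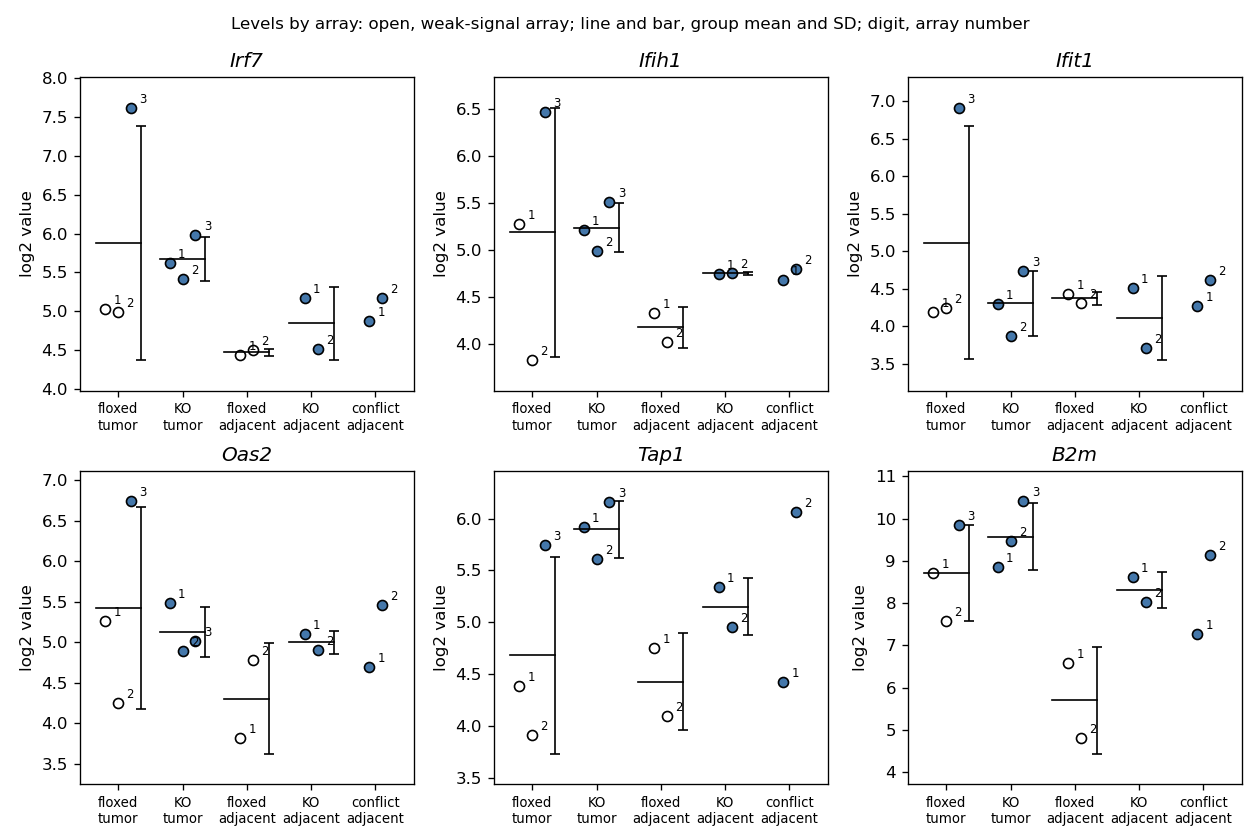
Log2 levels of Irf7, Ifih1, Ifit1, Oas2, Tap1 and B2m on each array by group, with the array number beside each point; open points are weak-signal arrays, and horizontal lines and bars give the group mean and SD. Floxed tumor array 3 stands above all other arrays for Irf7 (7.62), Ifih1 (6.47), Ifit1 (6.91) and Oas2 (6.74), but within the KO tumor arrays for Tap1 and B2m.

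The comparison that the series title names sets KO against floxed tumor epithelium. None of the 34 genes passed the test (0 at a limma adjusted p under 0.05), where 1.08% of all genes did, and 4 had an unadjusted p under 0.05, all higher in KO, beside 10.7% of all genes higher and 23% in either direction. The 4 were Tap1, with a KO minus floxed log2 difference of 1.21 ± 0.42 (SE, n = 3 and 3, limma adjusted p = 0.136), Psmb9 at 0.87 ± 0.38 (adjusted p = 0.205), Irf8 at 0.63 and Tap2, the other transporter subunit, at 1.15. Tap2 lay under the median of the probe sets without a gene on floxed tumor arrays 1 and 2, and Tap1 on array 2. The sizes for Tap1 and Tap2 are thus uncertain. In the other direction the smallest p belonged to Mx2, dim on most arrays, at −0.75 ± 0.38 (adjusted p = 0.264), and Usp18, at −0.49 ± 0.29 (adjusted p = 0.340). With the replicate number as a block, Tap1 passed (limma adjusted p = 0.0489), 1 of 34 beside 3.92% of all genes. That number did not clearly pair the arrays, and no label says what it shares. Arrays of the genotypes did not overlap for Irf8 and Gbp3, both higher in KO, and for 0 lower, beside 13.2% and 13.9% of all genes. Gbp3 lay under the median of the probe sets without a gene on floxed tumor arrays 1 and 2.

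By role, the median log2 difference was 0.86 over the class I processing genes, 0.59 over the transcription factors, −0.09 over the sensors and −0.29 over the antiviral effectors, with 0 called in each. Over all 34 genes it was −0.05, and over all genes −0.01. The SD of the floxed tumor arrays was 1.56 for Ifit1 and 1.51 for Irf7, against 0.43 and 0.29 in the KO tumor arrays. The 95% interval of the Ifit1 difference accordingly ran from −2.17 to 0.55. The other Irf1 probe set gave −0.31 ± 0.30 where the one used gave 0.86 ± 0.48, so the direction for Irf1 depends on the probe set.

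The sign of this comparison depended on which floxed arrays entered it. Without the weak-signal arrays, KO tumor was set against floxed tumor array 3 alone, which the fit assumes to vary as the KO arrays do. There 17 of the 34 genes were lower in KO and 0 higher, beside 9.92% of all genes lower and 9.47% higher. They were Irf7, the sensors Ifih1, Ddx58 and Zbp1, 12 of the 17 effectors and Irgm1. Ifit1 had a log2 difference of −2.61 ± 0.37 (adjusted p = 0.00469), Ifit3 of −2.39 ± 0.18 (adjusted p = 0.000695), Zbp1 of −2.15 ± 0.20 (adjusted p = 0.0017) and Irf7 of −1.96 ± 0.29 (adjusted p = 0.00574). None of the 6 class I processing genes passed there. Of 14 epithelial markers 7 were also lower in KO and 0 higher, with a median of −0.85.

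Without floxed tumor array 3, KO tumor was set against floxed tumor arrays 1 and 2, both of weak signal. There 10 genes were higher in KO and 0 lower, beside 14% of all genes higher and 15.1% lower. These were Stat2, Irf1, Irf9, Oas1a, Oasl2, Bst2, Parp14, Tap1, Tap2 and Psmb9. Tap2 had a log2 difference of 1.84 ± 0.34 (adjusted p = 0.00397), Tap1 of 1.74 ± 0.29 (adjusted p = 0.00243) and Oasl2 of 1.69 ± 0.24 (adjusted p = 0.00148). Probe sets without a gene had medians of 4.24 and 4.39 on floxed tumor arrays 1 and 2. Tap2 lay under both (4.12 and 3.33) and Tap1 under the second (3.91), so the sizes for Tap1 and Tap2 are uncertain. Oasl2 passed in both settings, lower in KO in the first and higher in the second. The median over the 34 genes was −0.89 in the first setting and 0.62 in the second. Epithelial markers turned with them: without floxed tumor array 3, 6 of 14 were higher in KO and 0 lower, with a median of 0.94. The part of the epithelial signal in either result was not tested. Both settings use the same KO arrays.

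**Figure D3:**
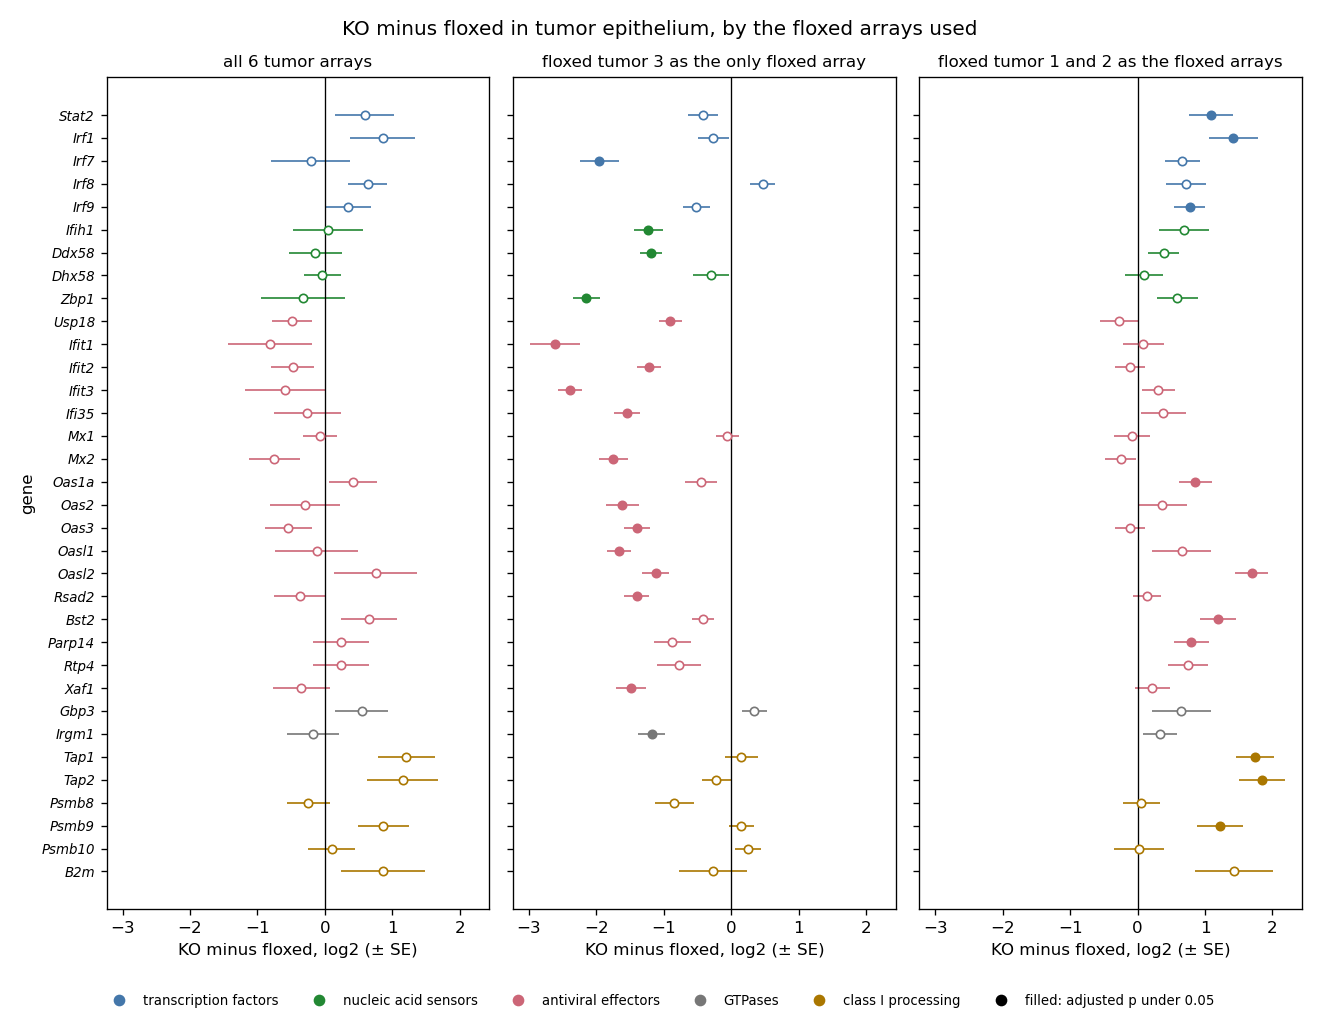
KO minus floxed log2 difference with its SE for each of the 34 genes in tumor epithelium, from the fit with all arrays (left), without weak-signal arrays (middle) and without floxed tumor array 3 (right); colours give the role and filled points an adjusted p under 0.05. Filled points number 0, 17 and 10, all below 0 in the middle panel and all above 0 in the right one.

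Floxed tumor array 3 was therefore described on its own, as a single array with no test. It held the highest level of the 12 arrays for 26 of the 34 genes (76.5%), beside 10.8% of all genes. It led the next array by over 1 log2 unit for 12 genes (35.3%), beside 0.557% of all genes. Those at their highest there were 3 of 5 transcription factors, 4 of 4 sensors, 16 of 17 effectors, 1 of 2 GTPases and 2 of 6 class I processing genes. The array exceeded the mean of the KO tumor arrays by a median of 1.40 log2 units over the effectors, 1.21 over the sensors, 0.42 over the transcription factors and 0.03 over the class I processing genes, against −0.02 over all genes. The largest of these differences were 2.61 for Ifit1, 2.39 for Ifit3, 2.15 for Zbp1 and 1.96 for Irf7. Of the genes at their highest there and with a promoter window, 10 of 18 held an ISRE core, and 2 of the 7 others did.

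Other interferon targets, listed apart from the 40 genes, shared this in part. Of 51 measured, 25 (49%) were highest in floxed tumor array 3, beside 10.8% of all genes. Their median difference from the KO tumor mean was 0.47, against −0.02 over all genes. Trim25, a ubiquitin ligase that activates RIG-I, was higher by 2.59 and Ddx60, a helicase that aids the RNA sensors, by 2.21 log2 units; both were singled out with their values known. Trim21 and Cxcl9 went the other way, with differences of −1.32 and −0.74, and were picked likewise. None of the 15 measured interferon genes was highest in floxed tumor array 3. Some were dim: Ifnb1, interferon beta, lay at 2.81, under the median of 3.85 of the probe sets without a gene on that array, where levels have no reliable order. Of 10 receptors and kinases 5 were highest there, beside 10.8% of all genes, with a median difference of 0.30 from the KO tumor mean. Among them, Jak2 lay at 7.12 in that array and at 4.40 to 6.02 elsewhere, and Jak1 at 6.66 and at 4.33 to 6.19. The kinase Tyk2 and the receptor chain Ifngr2 went the other way, with differences of −0.46 and −0.67 from that mean. These 4 genes too were singled out with their values known.

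Markers of other cells were read beside this. Mean log2 levels in floxed tumor array 3 were 4.65 over 6 pan-leukocyte, 4.23 over 14 T and NK cell, 4.05 over 15 macrophage and dendritic and 4.58 over 6 plasmacytoid dendritic cell markers. In the KO tumor arrays these means were 4.64 to 4.87, 4.11 to 4.33, 4.21 to 4.24 and 4.61 to 4.64, so none of these 4 lists was higher in floxed tumor array 3. B and plasma cell markers had a mean of 4.78 there, against 4.33 to 4.72 in KO tumor, with 2 of 9 at their highest. Epithelial markers, at a mean of 7.40, were higher there than in the KO tumor arrays (6.23 to 6.92), with 7 of 14 at their highest of the 12 arrays. Exocrine pancreas genes, a list added after the data were seen, had a mean of 8.46 there against 4.29 to 6.80 in KO tumor, with 11 of 13 at their highest. Conflict array 1 is a single array of adjacent epithelium with disputed genotype. It had means of 6.93, 8.15 and 4.10 over the epithelial, pancreatic and B and plasma cell lists. The 34 genes had a mean of 4.69 there, against 6.19 in floxed tumor array 3. The part of the epithelial, pancreatic and B cell signal in the interferon values was not tested in either array.

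**Figure D4:**
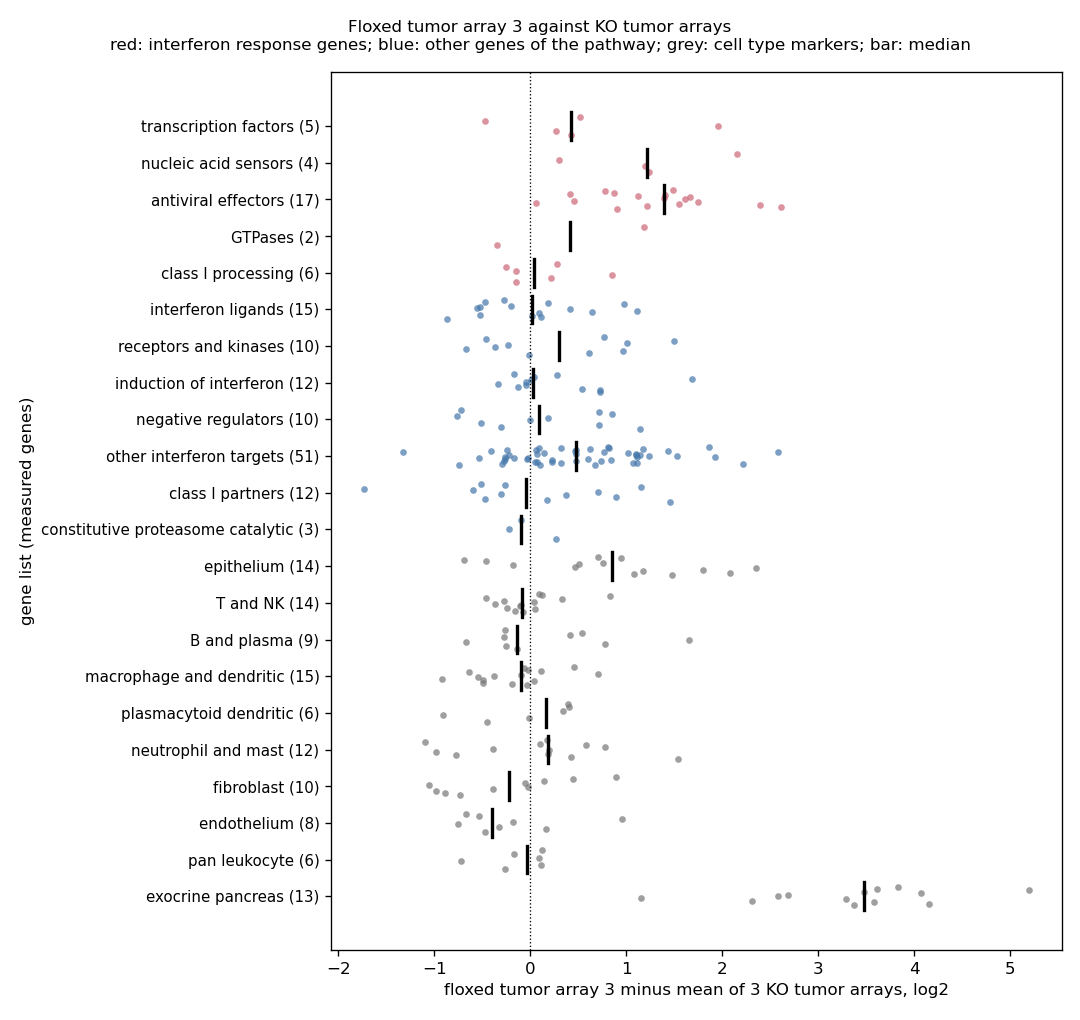
Log2 level in floxed tumor array 3 minus the mean of the 3 KO tumor arrays, 1 point per gene, by gene list with its number of measured genes; black bars are medians, red points the interferon response genes, blue points other genes of the pathway and grey points cell type markers. Effectors (1.40) and sensors (1.21) lie to the right, class I processing genes (0.03), interferon genes (0.02) and T and NK cell markers (−0.08) around 0, and epithelial (0.85) and exocrine pancreas genes (3.48) to the right as well.

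In adjacent epithelium, KO was compared with floxed over 2 and 2 arrays, both floxed arrays of weak signal. Irf8 was higher in KO by 1.60 ± 0.35 log2 units (SE, limma adjusted p = 0.0312), a fold of 3.03, and was the only one of the 34 genes to pass, beside 6.06% of all genes. Its levels were 4.20 and 4.19 in the floxed and 5.96 and 5.64 in the KO arrays. Both floxed levels lay under the median of the probe sets without a gene on those arrays (4.28 and 4.33), so the size is uncertain. The conflict arrays lay at 4.88 and 6.21. With those arrays read by title, or by characteristic, Irf8 did not pass and 0 genes of the group did. It did not pass after quantile normalizing again (adjusted p = 0.0865) or after scaling the arrays to one median and SD (adjusted p = 0.0872). The call also depended on single arrays: 0 of the 34 genes passed without any one KO tumor, KO adjacent or floxed adjacent array. Without floxed tumor array 2, Irf8 and B2m passed, beside 15.3% of all genes in either direction. Without floxed tumor array 3, Irf1, Irf8, Oasl2 and B2m passed, beside 12% of all genes higher and 12.6% lower.

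B2m came next, at 2.62 ± 0.76 (adjusted p = 0.0620), and Irf1 at 1.48 ± 0.59 (adjusted p = 0.133), with −0.87 ± 0.36 from the other Irf1 probe set. These 3 genes were those with an unadjusted p under 0.05, all higher, beside 13.1% of all genes higher and 28.2% in either direction. Below 0 the smallest p belonged to Xaf1, a promoter of cell death (−0.60 ± 0.52, adjusted p = 0.470), and Usp18 (−0.41 ± 0.36, adjusted p = 0.478). Arrays did not overlap for 18 genes higher and 4 lower in KO, beside 32.1% and 35% of all genes.

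All 5 transcription factors and all 6 class I processing genes had differences above 0 there, with medians of 1.00 and 0.73 log2 units, while the effectors had a median of −0.01. All 14 epithelial markers were also above 0, at a median of 1.39, with no overlap between arrays. Their part in the result was not tested, and fewer epithelial cells and less RNA per cell cannot be told apart in such samples. The comparison could not be run without weak-signal arrays, since no floxed adjacent array is left.

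Tumor was compared with adjacent epithelium first within the KO arrays, which were of like signal. None of the 34 genes passed (0 with limma, and 0 at an unadjusted p under 0.05), where 0.0201% and 2.47% of all genes did, 0.722% being higher at the latter level. Even so, 33 of the 34 were above 0, beside 57.3% of all genes, with a median of 0.29 log2 units against 0.04 over all genes. Tumor and adjacent arrays did not overlap for 18 genes, all higher in tumor, beside 17.9% of all genes higher and 14.1% lower. Those nearest the threshold were Oas1a, also dim, at 0.73 ± 0.40 (SE, n = 3 and 2, limma adjusted p = 1), and B2m, at 1.25 ± 0.69 (adjusted p = 1). Irgm1, at −0.05 ± 0.43, was the one gene below 0.

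The spread in that fit was shared with the floxed arrays. When the 5 KO arrays were the whole fit, these differences gave 0 genes past the adjusted test and 11 at an unadjusted p under 0.05, all higher in tumor, beside 6.46% of all genes. Epithelial markers had a median of −0.07 in this comparison, with 6 of 14 above 0, T and NK cell markers 0.23, with 12 of 14 above 0, and B and plasma cell markers 0.22, with 8 of 9 above 0. Pan-leukocyte markers had 0.25, with 5 of 6 above 0, and exocrine pancreas genes 0.73, with 11 of 13 above 0. Macrophage and dendritic cell markers had 0.04 and endothelial markers 0.06. Neutrophil and mast cell, plasmacytoid dendritic cell and fibroblast markers had −0.13, −0.15 and −0.19. The part of these cells in the result was not tested. No T and NK cell marker lay over 1 log2 unit above the array median in any KO array.

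Within the floxed arrays none of the 34 genes passed either (0 with limma, beside 0.00502% of all genes), and 4 had an unadjusted p under 0.05, all higher in tumor, beside 5.87% of all genes higher and 12.5% in either direction. B2m differed by 3.02 ± 0.69 log2 units (SE, n = 3 and 2, adjusted p = 0.211) and Irf8 by 1.12 ± 0.32 (adjusted p = 0.233). Oas3 and Psmb8, the other 2 of the 4, differed by 1.14 and 0.92. Irf8 and Oas3 lay under the median of the probe sets without a gene in both floxed adjacent arrays, so their sizes are uncertain. Arrays did not overlap for 6 genes, all higher in tumor, beside 8.64% of all genes higher and 10.1% lower. Gbp3 (−0.59 ± 0.45) and Bst2, tetherin, which holds budding viruses at the cell surface (−0.07 ± 0.46), were the 2 genes below 0. The median was 0.57 with 32 genes above 0, and 0.10 with 21 above 0 without floxed tumor array 3. Without floxed tumor array 2, Irf8 (1.43), Oasl1 (2.10) and B2m (3.59) passed, with adjusted p = 0.0378, 0.0406 and 0.0395, beside 1.72% of all genes. Epithelial markers had a median of 0.99 in this comparison, and their part was not tested.

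Over all 12 arrays, 6 tumor and 6 adjacent, 33 of the 34 genes were above 0 in tumor, beside 50.8% of all genes, with a median of 0.40 log2 units against 0.00 over all genes. None passed (0 with limma, and 0% of all genes), while 5 had an unadjusted p under 0.05, all higher in tumor, beside 1.51% of all genes higher and 2.57% in either direction. B2m differed by 1.74 ± 0.65 (SE, n = 6 and 6, limma adjusted p = 1), Irf7 by 0.99 ± 0.38 (adjusted p = 1), Psmb8 by 0.61, Oas3 by 0.58 and Dhx58 by 0.45. Gbp3, at −0.11 ± 0.29, was the one gene below 0. Tumor and adjacent arrays overlapped for all 34 genes, where 0.0652% of all genes were higher and 0.13% lower without overlap.

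Leaving out floxed tumor array 3 brought the median over all arrays to 0.15, with 28 genes above 0. Without the weak-signal arrays it was 0.53, with all 34 above 0 and 11 at an unadjusted p under 0.05, beside 3.93% of all genes, and without both it was 0.27 with 33 above 0. Epithelial markers had a median of 0.33 over all arrays, with 12 of 14 above 0, and pan-leukocyte markers −0.05, with 2 of 6 above 0. The part of the epithelial signal in the result was not tested.

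A test of whether the genotype difference itself differed between tumor and adjacent epithelium called 0 of the 34 genes with limma, and 0 had an unadjusted p under 0.05, where 6.42% of all genes did, 3.34% with a difference above 0. The smallest adjusted p was 0.778, for Irf8, whose difference between tissues was −0.97 ± 0.45 log2 units. For B2m it was −1.76 ± 0.98, for Gbp3 0.77 ± 0.63 and for Oas1a 0.51 ± 0.56. A difference between tissues was thus not detectable, and the intervals were wide: that of B2m ran from −3.93 to 0.40.

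Other genes of the pathway were read by lists. In KO against floxed tumor epithelium, 1 of 15 interferon genes was lower, Ifnk, interferon kappa of epithelium (adjusted p = 0.0466), beside 1.08% of all genes called. Ifnk lay under the median of the probe sets without a gene on all 12 arrays, so no size is given for it. Of 51 other interferon targets 1 was higher, Trim21, a ubiquitin ligase that binds antibody in the cytosol, at 1.16 ± 0.23 (adjusted p = 0.0478). Its levels in floxed tumor arrays 1 to 3 were 4.28, 4.06 and 3.92. Probe sets without a gene had medians of 4.24, 4.39 and 3.85 there, so the size for Trim21 is uncertain. None of 10 receptors and kinases, 12 genes of interferon induction, 10 negative regulators and 12 partners of class I processing passed. The receptor chains Ifnar1, Ifngr1 and Ifnlr1, of type I, gamma and type III interferon, differed by 0.69 ± 0.36, 0.21 ± 0.43 and 0.24 ± 0.24 (adjusted p = 0.280, 0.801 and 0.571).

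In adjacent epithelium 8 genes of these lists passed, which held 15, 10, 12, 10, 51 and 12 genes. That share is close to the 6.06% of all genes, so the count does not set the lists apart. Pdia3, a disulfide isomerase of class I loading, was higher in KO (limma adjusted p = 0.00893). So were Ifngr2, the second chain of the gamma receptor, by 2.93 ± 0.60 (adjusted p = 0.0272), and Nlrc5, the transactivator of class I genes, by 1.92 ± 0.47 (adjusted p = 0.0422). Adar, which edits double-stranded RNA, was higher by 1.41, and Plscr1, a phospholipid scramblase, was also higher. Adar and Plscr1 lay beyond the naming rule and were added after their values were seen. The floxed adjacent arrays put Pdia3 at 2.74 and 2.98 and Plscr1 at 4.10 and 3.73. Probe sets without a gene had medians of 4.28 and 4.33 there, so no size is given for Pdia3 and Plscr1. Ifngr2 lay under that median on floxed adjacent array 1, so its size is uncertain. Ifna9 was lower (adjusted p = 0.0412), as were Tlr7, a sensor of single-stranded RNA, and Ifnk (adjusted p = 0.0465 and 0.0324). Both KO adjacent arrays put Ifnk and Tlr7 between 2.28 and 2.74, where probe sets without a gene had a median of 3.94, and Ifna9 at 3.71 and 3.92, so no size is given for these 3. The comparison again rested on weak-signal floxed arrays. Ifnar1, Ifngr1 and Ifnlr1 differed by 1.02, 0.86 and 0.17 and did not pass.

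Between tumor and adjacent epithelium 0 genes of these lists passed with limma, within KO, within floxed or over all arrays. Within KO, the other interferon targets were above 0 in 41 of 51 cases, with a median of 0.17, and 1 had an unadjusted p under 0.05. The interferon genes were above 0 in 12 of 15 cases, with a median of 0.14. The constitutive proteasome subunits Psmb5, Psmb6 and Psmb7, which the immunoproteasome subunits Psmb8, Psmb9 and Psmb10 replace, had a median of −0.13 with 0 of 3 above 0, while the class I processing genes had 0.39 with 6 of 6 above 0. Over all arrays these medians were −0.16 and 0.34.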

How the data were processed

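The deposited table held 1 log2 expression value per probe set and array for 12 arrays, made by the authors from total RNA prepared with the GeneChip WT Pico kit, per the labels' protocols. The submitters' processing notes list the tools Partek and RMA (a multi-array summary of probe signals) and give versions for neither. Genome build and filters are not given in the sources used here. Arrays still differed in scale after this processing, with an SD of 1.04 to 1.57 within arrays.

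Of 35556 probe sets, 21789 had 1 gene symbol in the platform annotation, 1621 carried more than 1 and were set aside, and 12146 had none in it. The probe set with the highest mean represented each of 19938 genes. The 10 arrays of undisputed genotype were fitted in 4 groups, and the 12 arrays by tissue, with limma 3.58.1 in R 4.3.3 (lmFit and eBayes, two-sided, Benjamini-Hochberg over all genes). A gene passed at an adjusted p under 0.05. Errors are SE unless named, and intervals are 95%. The number of arrays limits the precision. Steps were tested on simulated data.

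The genes and lists were chosen with earlier results of these data known. Named throughout were Stat2, Irf7, Irf9, Ifih1, Ifit1, Oas2, Psmb8, Tap1 and B2m, and per comparison all that passed or, with under 4, the 2 smallest p in each direction. Of the pathway, Ifnar1, Ifngr1 and Ifnlr1 were named, and up to 6 that passed. Others were picked after their values were seen.

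KO and floxed tumor arrays with the same number had deviations that correlated at 0.105, 0.121 and 0.347 across genes. Pairs of unlike number ran from −0.291 to 0.246, the latter for KO tumor array 1 with floxed tumor array 2. The number thus did not clearly pair these arrays, and no label says what a number shares. In adjacent epithelium the correlation at the same number was 0.00986. With 2 arrays per group, pairs of unlike number give that value with its sign turned, so it does not settle whether the number pairs arrays. Alternatives were other scaling, a filter on the dimmest 30% of genes, all probe sets, a trend and robust variance, array weights, only the arrays compared, the replicate block, both readings of the conflicting labels, each array left out, and leaving out arrays of a median correlation under 0.7. Those leaving out the conflict arrays, or weak-signal arrays together with floxed tumor array 3, were added after seeing the data. RefSeq promoter windows came from GRCm38.p6.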

Additional observations from a re-analysis of the deposited data

Results flagged for a closer look

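Among the 6 tumor arrays, floxed tumor array 3 stood apart from the other 5 for 8 of the 34 genes, by the gap to the nearest array as a share of the range. Its log2 levels were 6.91 for Ifit1, 5.40 for Ifit2 and 8.43 for Ifit3, of a family that binds foreign RNA, and 6.79 for Ifi35, an interferon-induced leucine zipper protein. They were 5.21 for Mx2, 5.97 for Oas3, 6.30 for Rsad2 and 5.90 for the sensor Ddx58. The gap made up 0.789 of the range for Rsad2, 0.742 for Ifit3 and 0.627 for Ddx58. Chance alone would set apart about 1.7 of 34 genes in a tissue if they varied independently, which genes of a shared response do not. The array was also singled out from these same values, and the other 5 include weak-signal arrays. The count of 8 thus cannot be weighed against 1.7 and only describes the array. Among the 6 adjacent arrays 0 of 34 genes had an array set apart in this way.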

How the results depend on the processing

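For KO against floxed tumor, 0 genes passed, but 2 with array weights (Tap1 and Tap2), 1 with the replicate block, 17 without weak-signal arrays (median −0.89) and 0 to 10 with each array left out (medians −0.32 to 0.62, the latter without floxed tumor array 3). For adjacent epithelium, 1 passed, but 0 after quantile normalizing again, after scaling to one median and SD, and with the conflict arrays read by title or by characteristic. There 3 passed with array weights and with the replicate block (Irf1, Irf8 and B2m), although numbers were not shown to pair arrays there. With only the arrays compared 3 passed (Irf8, Oasl2 and B2m), and 0 to 4 with each array left out. For tumor against adjacent in KO, 1 passed with array weights (Oas1a, 0.71); in floxed, 0 to 3 passed with each array left out. With the replicate block, the KO median of 0.29 became 0.01, with 18 of 34 genes above 0, and same-numbered KO arrays of the tissues did not deviate together (correlations of 0.0125 and −0.129). The interaction median of −0.38 ranged from −0.61 to 0.15 with each array left out, 0.15 without floxed tumor array 3. Signs turned for Irgm1 in tumor against adjacent KO (0.16 by title; −0.14 to 0.068 with each array left out, above 0 without KO tumor array 1 or KO adjacent array 1). They also turned in tumor against adjacent floxed for Bst2 (−0.60 to 0.42 with each array left out, 0.42 without floxed tumor array 2) and Gbp3 (−1.54 to 0.36, the latter without floxed adjacent array 1). For Gbp3 over all arrays the values were −0.26 to 0.12 with each array left out, 0.12 without floxed adjacent array 1, 0.13 with array weights, 0.17 without weak-signal arrays and 0.26 also without floxed tumor array 3. In the interaction they were −0.18 to 1.72 for Gbp3 with each array left out, −0.18 without floxed adjacent array 1, and 0.010 for Irf8 by title. The causes were not tested. The replicate block changed no other call of these genes. Over all genes, KO against floxed tumor called 215, and 782 with the replicate block, 3866 without weak-signal arrays, 5793 without floxed tumor array 3 and 0 by title. In adjacent epithelium it called 1209, and 2450 with the replicate block, 128 after quantile normalizing again and 1 by title.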
